A study of Mus musculus with 8 samples.

Results

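The genes examined here were the platelet-derived growth factors (PDGFs) and their receptors, 6 genes chosen by name from the 19751 genes that could be named on the array: the ligands Pdgfa, Pdgfb, Pdgfc and Pdgfd and the receptors Pdgfra and Pdgfrb. They were read by 8 of the 39429 probes. Expression was measured in AtT20 cells, a mouse line of pituitary corticotroph tumor cells that secrete ACTH, on 1-color Agilent arrays with 1 array per sample. The control group was 4 samples kept for 48 hr in Dulbecco's modified Eagle medium with stripped fetal bovine serum, and the HX630 group was 4 samples kept for 48 hr in that same medium with HX630 at 10 μM. HX630 is a synthetic agonist of the retinoid X receptors (RXRs), nuclear receptors that act alone or as partners of other nuclear receptors. Both groups came from 1 cell line, and no source says whether samples of a group were separate cultures, so the p-values measure the spread between these samples, which may be technical.

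PDGFs are secreted dimers that drive growth and migration of mesenchymal cells such as fibroblasts, pericytes and smooth muscle cells. PDGF-A and PDGF-B are activated inside the cell by proprotein convertases, whereas PDGF-C and PDGF-D leave the cell with an inhibitory CUB domain that proteases outside the cell remove. PDGFRα and PDGFRβ, the products of Pdgfra and Pdgfrb, are receptor tyrosine kinases that pair when a ligand binds and then signal through the Ras and MAP kinase, phosphoinositide 3-kinase (PI3K) and phospholipase C pathways. PDGFs made by tumor cells can act on neighboring stromal cells that carry the receptors.

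Among the 6 genes, Pdgfc was the one called. Its signal fell to 18.5% of the control level in cells incubated with HX630, while Pdgfa and Pdgfb were not called, and Pdgfd and both receptors did not count as well above background on even 1 of the 8 arrays. Calls needed a limma adjusted p under 0.01 together with a fold change of more than 1.5. By this rule, 1 of the 3 members that could be tested was called, against 11.1% of the 15319 genes tested called down and 8.39% called up. On every scale below, a signal is the log2 of a probe's processed intensity relative to the 75th percentile of the same array, so that 0 stands for the 75th percentile. Signals are compared between arrays and not between probes, since each probe binds its transcript with its own strength. RNA was taken from whole cultures, in which fewer cells with a transcript and less of it per cell cannot be told apart.

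The promoters of Pdgfc and Pdgfa are shown because Pdgfc was the ligand gene called, and Pdgfa was the other tested ligand with an entry in the promoter table. Each runs from 250 bases before to 50 bases after a RefSeq start site (GRCm38.p6), 5′ to 3′ on the strand of the gene, and capitals mark the motifs found. Pdgfc lies on the plus strand at chr3:81036166-81036465, and Pdgfa has 2 starts in the table, both on the minus strand, at chr5:138994895-138995194 and chr5:138994232-138994531.
Pdgfc: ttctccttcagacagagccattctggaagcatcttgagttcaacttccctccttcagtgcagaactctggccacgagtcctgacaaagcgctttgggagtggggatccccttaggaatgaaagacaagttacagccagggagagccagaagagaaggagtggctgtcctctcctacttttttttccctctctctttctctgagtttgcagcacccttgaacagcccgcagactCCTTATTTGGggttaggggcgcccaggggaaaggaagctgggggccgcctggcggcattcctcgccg
Pdgfa, upstream start: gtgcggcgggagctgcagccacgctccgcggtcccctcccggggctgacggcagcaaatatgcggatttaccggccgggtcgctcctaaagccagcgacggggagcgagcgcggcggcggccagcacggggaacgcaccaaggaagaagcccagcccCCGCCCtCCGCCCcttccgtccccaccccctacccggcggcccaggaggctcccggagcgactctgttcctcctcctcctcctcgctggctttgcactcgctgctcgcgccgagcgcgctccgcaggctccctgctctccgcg
Pdgfa, second start: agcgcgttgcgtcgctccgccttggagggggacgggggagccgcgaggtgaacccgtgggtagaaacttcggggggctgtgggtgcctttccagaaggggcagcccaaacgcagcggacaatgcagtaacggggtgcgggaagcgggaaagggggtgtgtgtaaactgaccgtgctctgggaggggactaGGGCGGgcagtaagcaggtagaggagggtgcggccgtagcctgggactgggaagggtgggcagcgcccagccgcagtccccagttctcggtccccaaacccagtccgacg
The motifs searched on both strands were the AP-1 site TGANTCA, the NBRE AAAGGTCA that NR4A receptors bind, the nuclear receptor half-site AGGTCA that it contains, the EGR site GCGNGGGCG, the GC box GGGCGG, which can overlap an EGR site, and the CArG box of serum response factor. The Pdgfc promoter held 1 CArG box, from base -17 to base -8 counted from the start site, which reads as a CArG box on both strands. It held none of the other motifs in these letters. A CArG box was present in 1.6% of the 32851 mouse promoters of this length in the table. The upstream Pdgfa start had 2 GC boxes on the strand opposite the gene, where the sequence above reads CCGCCC, beginning at -93 and -86, and the second start had 1 on the strand of the gene at -60, a motif present in 35.7% of all promoters. The GC content was 55.0% for Pdgfc and 73.3% and 67.0% for the Pdgfa starts. The AP-1 site was present in 7.8%, the NBRE in 1.5%, the half-site in 16.3% and the EGR site in 5.6% of all promoters. These matches describe the letters and are not evidence of binding.

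Pdgfc encodes PDGF-C, a ligand that binds PDGFRα and needs removal of its CUB domain to become active. It was read by 1 probe (A_52_P376360). The log2 signal was -0.55, -0.78, -0.80 and -0.64 on the 4 control arrays and -2.82, -3.23, -3.32 and -3.13 on the 4 HX630 arrays. The groups did not overlap, and the lowest control array lay far above the highest HX630 array. Before scaling, the processed intensity ran from 790 to 1077 in control and from 183 to 255 with HX630, well above background on all of them. The mean went from -0.69 ± 0.12 (SD, n = 4) to -3.13 ± 0.22 (SD, n = 4). The signal fell by 2.43 on the log2 scale (SE 0.112, 95% interval -2.69 to -2.17, limma adjusted p = 1.21e-06), a 5.40-fold fall, with 18.5% of the control signal left (interval 15.4% to 22.2%). It ranked 98 among the falls of the 15319 genes tested. The exact permutation test gave p = 0.0286 (two-sided), the smallest value that the 70 regroupings of 8 arrays can give. The call was kept under each of the 23 alternative settings, in which the log2 fold change ranged from -2.53 to -2.02.

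Pdgfa encodes PDGF-A, a ligand of PDGFRα alone. The signal of its brighter probe (A_55_P2007470) was 0.02, -0.02, 0.02 and 0.12 on the control arrays and -0.06, -0.23, -0.19 and -0.17 on the HX630 arrays. All HX630 arrays lay below all control arrays, by a narrow margin. The mean was 0.035 ± 0.062 (SD, n = 4) in control and -0.17 ± 0.072 (SD, n = 4) with HX630, a difference of -0.20 (SE 0.0498, interval -0.32 to -0.08, limma adjusted p = 0.00945), or 87.1% of control, which was under the fold change of 1.5 and so was not called. This direction held under the other settings but turned to 0.005 (limma adjusted p = 0.954) when arrays were scaled to the spike-in probes. The dimmer probe (A_55_P2125588) gave -0.55, -0.31, -0.08 and -0.13 in control and -0.56, -0.50, -0.39 and -0.36 with HX630. Here the groups overlapped, with control replicate 1 inside the range of the HX630 arrays, and the difference of -0.19 (SE 0.106, limma adjusted p = 0.167) did not pass the test.

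Pdgfb encodes PDGF-B, the ligand that binds PDGFRα and PDGFRβ alike. The signal of its brighter probe (A_55_P2047310) was -3.55, -3.84, -3.81 and -3.85 in control and -3.86, -4.04, -4.14 and -4.49 with HX630. The groups did not overlap, but the highest HX630 array lay just under 3 of the control arrays. The difference was -0.37 (SE 0.135, interval -0.69 to -0.06, limma adjusted p = 0.0458), or 77.3% of control, and was not called. The dimmer probe (A_55_P1974441) was well above background on 3 of 4 arrays in each group, and gave -6.41, -6.21, -6.33 and -6.56 in control and -6.76, -6.89, -6.70 and -6.87 with HX630. Its difference of -0.43 (SE 0.0816, limma adjusted p = 0.00252) passed the p-value but not the fold change of 1.5. This difference was 0.001 with a normexp background correction at an offset of 50 and quantile normalization. With normexp at an offset of 16 and the 75th percentile it was -0.47. The brighter probes of Pdgfa, Pdgfb and Pdgfc all had each HX630 array below each control array, a pattern that 32.8% of all tested genes showed. Scaling to the spike-in probes raised the median of all genes by 0.21 on the log2 scale. Relative to the median of all genes the differences were -2.40 for Pdgfc, -0.34 for Pdgfb and -0.17 for Pdgfa. These are the same under both scalings by construction, since each subtracts 1 value per array.

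**Figure D1:**
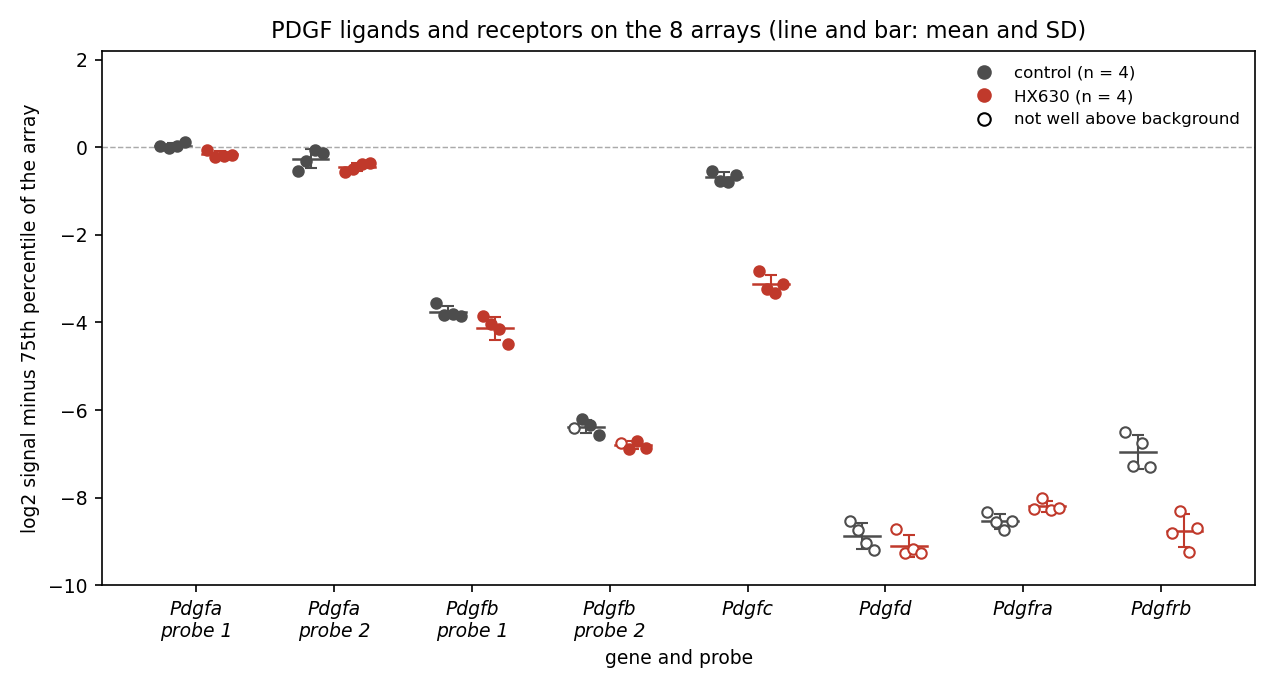
Log2 signal relative to each array's 75th percentile (vertical axis) of the 8 probes for PDGF ligands and receptors, with 1 point per array, 4 control and 4 HX630. Lines and bars are the mean and SD, and open points are arrays on which the probe was not well above background. Pdgfc went from between -0.80 and -0.55 in control to between -3.32 and -2.82 with HX630, while Pdgfd, Pdgfra and Pdgfrb have open points only.

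Whether the ligands changed by different amounts was tested within arrays, where scaling between arrays cancels. The signal of Pdgfa minus that of Pdgfc went from 0.73 ± 0.11 (SD, n = 4) to 2.96 ± 0.15 (SD, n = 4), so that Pdgfc fell by 2.23 more than Pdgfa on the log2 scale (SE 0.0935). The same difference against Pdgfb was 2.06 (SE 0.137). Both gave an exact permutation p of 0.0286, or 0.0429 after adjustment over the 3 pairs. Between Pdgfa and Pdgfb the changes differed by 0.17 (SE 0.147, exact permutation p = 0.457). This value was -0.039 with normexp at an offset of 50 and quantile normalization. It was 0.20 with normexp at an offset of 16 and the 75th percentile. Pdgfc changed by more than either of the other ligands tested, and no difference between Pdgfa and Pdgfb was detectable with 4 arrays per group.

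**Figure D2:**
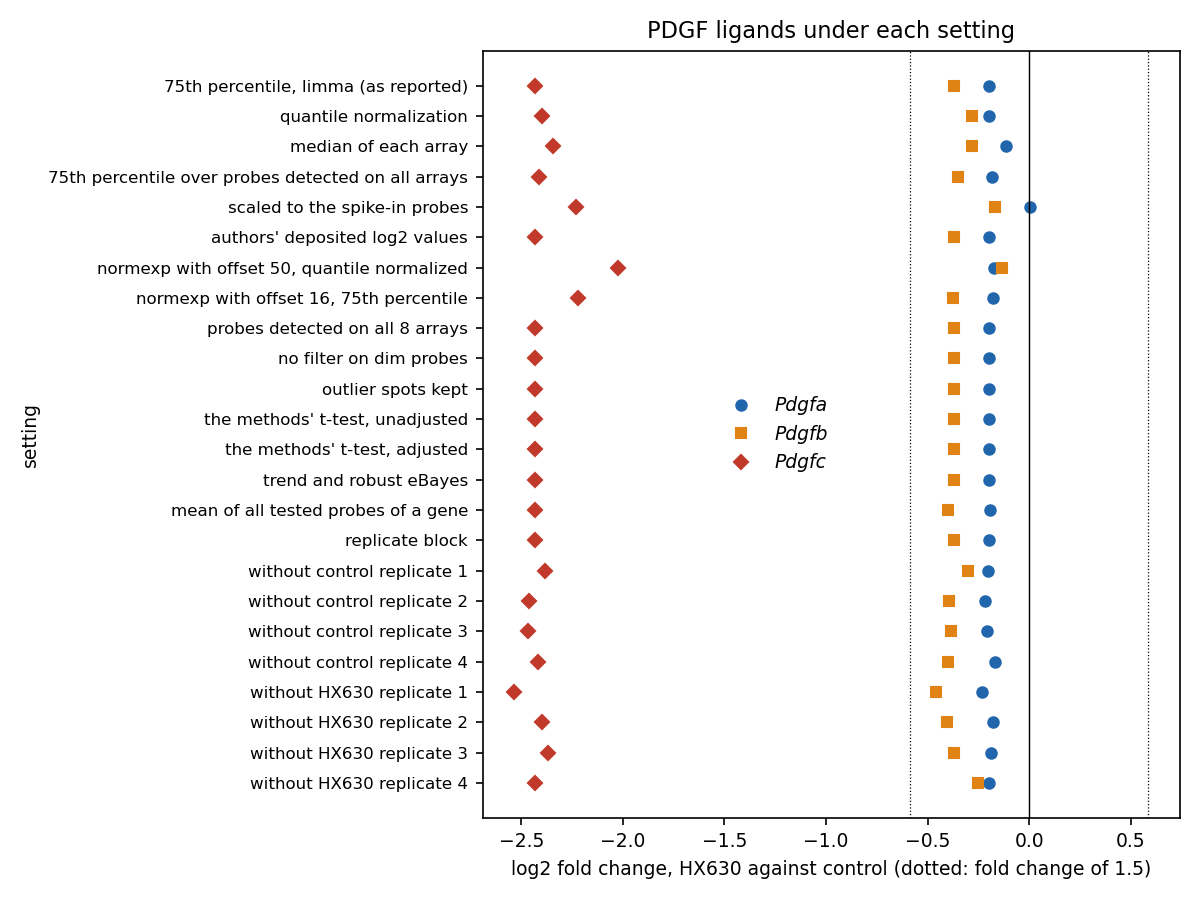
Log2 fold change of Pdgfa, Pdgfb and Pdgfc (horizontal axis) under the main setting and each of the 23 alternative settings (vertical axis), with dotted lines at a fold change of 1.5. Pdgfc lies between -2.53 and -2.02 throughout, past the dotted line, while Pdgfa and Pdgfb stay inside the dotted lines in all settings and Pdgfa reaches 0.005 with spike-in scaling.

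Pdgfd encodes PDGF-D, the ligand of PDGFRβ that also carries a CUB domain. Its probe (A_52_P264790) read intensities of 3.63, 3.17, 3.55 and 2.87 in control and 4.29, 3.01, 3.17 and 3.09 with HX630. These values are in arbitrary units, on arrays whose dimmest probes counted as well above background read between 8.92 and 18.1. On none of the 8 arrays did the probe count as well above background, nor did Feature Extraction mark it as positive and significant. No fold change is given.

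Neither receptor counted as well above background. Pdgfra was read by 1 probe printed 10 times per array (A_51_P345649), with mean intensities of 4.17, 3.63, 4.36 and 4.51 in control and 5.91, 7.13, 5.92 and 6.29 with HX630. All HX630 means were above all control means, but none of the 8 means counted as well above background, so that no fold change is given. The share of kept spots that Feature Extraction marked as positive and significant was 0.125 to 0.7 in control and 0.75 to 1 with HX630. With no filter on dim probes Pdgfra was not called (limma adjusted p = 0.0281), and its direction was reversed with normexp at an offset of 16. On HX630 replicate 1, a single spot read 173 and was marked as an outlier, while the other spots kept on that array read at most 9.26. On HX630 replicate 2, 1 of the 10 spots was well above background, at 14.6. Pdgfrb was read by 1 probe (A_55_P1957249), at 14.7, 8.71, 17.4 and 10.8 in control and 4.04, 5.80, 3.05 and 4.61 with HX630. Every control array lay above every HX630 array, yet no array of the 8 showed the probe well above background. The weaker mark of Feature Extraction, positive and significant, was given on 4 of 4 control arrays and on 2 of 4 HX630 arrays. With no filter on dim probes Pdgfrb passed the call rule (limma adjusted p = 9.11e-04), which brought the members called to 2, both in the direction of lower signal with HX630. That p-value comes from signals not well above background. The log2 difference of -1.80 shrank to -0.17 with normexp at an offset of 50 and quantile normalization. It was -0.87 with normexp at an offset of 16 and the 75th percentile.

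The cell type of the cultures was checked with marker genes. All 8 corticotroph markers, among them Pomc, the ACTH precursor, were well above background on every array. Of these, 2 were called up and 2 down, against 8.39% and 11.1% among all genes. Their log2 fold changes ran from -2.06 to 1.11. Of the 6 fibroblast markers, 3 to 4 were detected per control array and 4 per HX630 array, with Lum and Postn below background on all 8 arrays. Their summed signal was 0.108 to 0.13 times the 75th percentile in control and 0.114 to 0.163 times with HX630. The sum of the corticotroph markers was 591 to 731 times in control and 433 to 455 times with HX630. Each sum adds probes of different binding strength, also those below background. The sums therefore do not measure the share of a cell type and are not compared between lists. Of the 6 mural cell markers, Rgs5 was below background on all arrays, and the sum was 0.43 to 0.476 times in control and 0.355 to 0.387 times with HX630. Des, a mural marker, fell by 1.55 (limma adjusted p = 1.82e-05), but was well above background on only 1 of 4 HX630 arrays. Its fitted value thus rests on HX630 signals mostly below background. The 4 other mural markers tested were not called. Dcn, a fibroblast marker, rose by 1.04 (limma adjusted p = 0.00708), while Col1a1 (0.22), Col1a2 (0.07) and Col3a1 (-0.31) were not called. Of the 4 endothelial markers, 2 were detected on every array (Pecam1 and Cldn5) and Cdh5 and Tie1 on none, with a sum of 0.145 to 0.178 times in control and 0.104 to 0.122 times with HX630. Of the 4 folliculostellate markers, Gfap and Aldh1a1 were detected on every array and S100b and Anxa1 on none, with a sum of 0.0662 to 0.0829 times in control and 0.072 to 0.0992 times with HX630. Pecam1 fell by 0.59 (limma adjusted p = 4.97e-05) and Gfap rose by 0.97 (limma adjusted p = 4.71e-04). Cldn5 (-0.27) and Aldh1a1 (-0.11) were not called. All 3 immune markers named on the array, Ptprc, Adgre1 and Itgam, were detected on every array, with a sum of 4.87 to 6.94 times in control and 4.83 to 6.94 times with HX630, and were not called. The part of other cell types in the PDGF values was not tested. The control arrays were on 1 slide and the HX630 arrays on another, so that slide and treatment cannot be told apart. The 75th percentile of intensity was 1335 to 1862 in control and 1802 to 1900 with HX630, and correlations of the log2 signals over all probes were 0.992 to 0.994 within groups and 0.983 to 0.987 between them.

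Of the 6 enzymes that release active PDGF, 4 were tested, with a median log2 fold change of 0.10 against -0.03 for all genes, and none reached a fold change of 1.5. At an unadjusted limma p under 0.05, 2 of them were higher. The share of all genes passing that threshold was not counted, so no result is read from this. The 4 tested were Furin (0.20), Pcsk6 (0.01) and Pcsk7 (0.27), which cut precursors inside the cell, and Plat (-0.03), the tissue plasminogen activator that removes the CUB domain of PDGF-C. Plau, the urokinase that acts on PDGF-D, and Pcsk5 were not well above background on any array. Of the 7 binding partners, 4 were tested, with 1 called up, 1 called down and a median of 0.20. Among all genes, 8.39% were called up and 11.1% down. Sparc (-0.06), which binds PDGF-B, and Pdgfrl (0.46), a receptor-like protein, were not called. Nrp1, a co-receptor for VEGF that also binds PDGF, rose by 0.80 (SE 0.136, limma adjusted p = 0.00137), and Lrp1, an endocytic receptor that associates with PDGFRβ, fell by 0.90 (SE 0.039, limma adjusted p = 9.27e-07). The Nrp1 signal was -5.45, -5.18, -5.27 and -4.78 in control and -4.29, -4.52, -4.34 and -4.31 with HX630, without overlap. Its call was lost with normexp at an offset of 50 and quantile normalization (0.41). It was also lost with normexp at an offset of 16 without quantile normalization (0.28).

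The VEGFs share the cystine knot fold of the PDGFs and are their nearest relatives. Of the 5 genes Vegfa, Vegfb, Vegfc, Vegfd and Pgf, 4 were tested, with a median of -0.32. Of these, 2 were called down and 1 up, against 11.1% and 8.39% among all genes. Vegfa, the main angiogenic member, fell by 0.78 (SE 0.0704, limma adjusted p = 4.32e-05), with signals of 3.00 to 3.26 in control and 2.30 to 2.49 with HX630. Vegfb fell by 0.67 (SE 0.0359, limma adjusted p = 2.47e-06). Both calls were lost with spike-in scaling, at -0.57 for Vegfa and -0.47 for Vegfb, and that of Vegfb also when scaled to the median, at -0.58. Vegfd, a lymphangiogenic member, was not well above background on any control array and was on all 4 HX630 arrays, at -4.78, -4.70, -4.71 and -4.71. It was at least 4.66-fold higher with HX630, a bound taken against the higher, on each control array, of its own signal and the dimmest signal well above background. It could be tested only through the HX630 arrays, and its fitted value of 3.18 (limma adjusted p = 3.31e-06) rests on control signals below background. With normexp at an offset of 50 and quantile normalization the fitted value of Vegfd was 0.84. With normexp at an offset of 16, without quantile normalization, it was 0.87 and the call was lost (limma adjusted p = 0.0304). The median of the list is the same with Vegfd at this bound. Pgf was not called (0.04), and Vegfc was not well above background on any array.

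**Figure D3:**
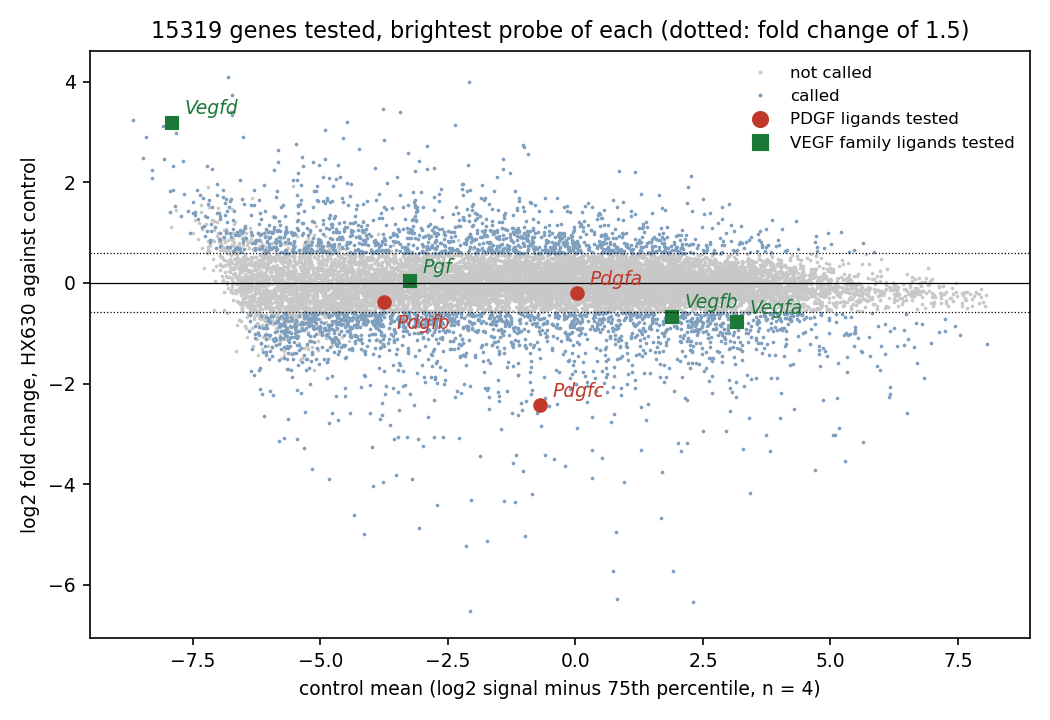
Log2 fold change of HX630 against control (vertical axis) and mean control signal (horizontal axis, log2 signal relative to the 75th percentile) of the 15319 genes tested, 1 point per gene. Pdgfc lies at -2.43, Pdgfa and Pdgfb lie within the dotted lines at a fold change of 1.5, and the fitted value of Vegfd rests on control arrays below background.

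The receptors related to the PDGF receptors, with immunoglobulin-like domains outside the cell and a kinase inside, were all tested. Of these 6 genes, 3 were called down, against 11.1% among all genes, with a median of -0.47. Csf1r, the receptor of the macrophage growth factor CSF1, fell by 0.72 (SE 0.0701, limma adjusted p = 6.53e-05), whereas its other probes gave -0.31 and -0.15 and were not called, and its call was lost with spike-in scaling (-0.51) or as the mean of its probes (-0.39). Kit, the stem cell factor receptor, was at -0.65 (limma adjusted p = 0.00413) on a probe well above background on 3 of 4 control arrays and 1 of 4 HX630 arrays. Flt3 was at -0.59 (limma adjusted p = 0.00399), and its dimmer probe was at 0.04. The Kit and Flt3 calls were each lost in 12 settings. With normexp at an offset of 50 and quantile normalization, Kit was at -0.076 (limma adjusted p = 0.23) and Flt3 at -0.28. The mean of the Flt3 probes was also -0.28. Quantile normalization alone lost both calls as well, at -0.49 for Kit and -0.48 for Flt3. For Kit the settings also included leaving out control replicate 1, 3 or 4 or HX630 replicate 2 or 4, with values from -0.67 to -0.55, and for Flt3 control replicate 1 or 4 or HX630 replicate 2, 3 or 4, with values from -0.60 to -0.47.

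Of the 27 adaptors and enzymes that bind activated PDGF receptors, 25 were tested, with a median of 0.15. Of these, 3 were called up and 1 down, against 8.39% and 11.1% among all genes. Pik3r3, a regulatory subunit of PI3K, had signals of 0.22, 0.05, 0.31 and 0.39 in control and 1.81, 1.86, 1.80 and 1.82 with HX630, without overlap. It rose by 1.58 (SE 0.0715, limma adjusted p = 1.09e-06). Shc1, an adaptor that links receptors to Ras, fell by 0.75 (SE 0.0476, limma adjusted p = 6.18e-06), a call lost with spike-in scaling at -0.54. Pik3cd, a catalytic subunit of PI3K, rose by 0.61, and Sos1, a Ras exchange factor near background, rose by 0.61 (limma adjusted p = 4.87e-04) but was at -0.24 with normexp at an offset of 16. The Sos1 call was also lost without control replicate 1 or 2 or without HX630 replicate 2, at 0.56 to 0.58. Pik3r1 (-0.22), Grb2 (0.19), Ptpn11 (0.19), Src (-0.07) and Plcg1 (0.57) were not called. Of the 16 Ras, MAP kinase and Akt genes below the receptors, 2 were called up, against 8.39% among all genes, with a median of 0.05. Mapk3, which encodes ERK1, rose by 0.82 (SE 0.0411, limma adjusted p = 1.76e-06), and its second probe was called up as well, at 0.76.

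Of the 15 negative regulators, 13 were tested, with a median of 0.10. Of these, 3 were called down and 1 up, against 11.1% and 8.39% among all genes. Spred2 and Spred1, inhibitors of Ras activation, fell by 1.59 (SE 0.0744, limma adjusted p = 1.28e-06) and 0.82 (SE 0.05, limma adjusted p = 4.85e-06). The Spred1 call was lost with normexp at an offset of 50 and quantile normalization (-0.58). Spred2 was -1.65, -1.57, -1.72 and -1.75 in control and -3.06, -3.35, -3.32 and -3.31 with HX630, so the groups were far apart. Socs3, an inhibitor of cytokine signaling, fell by 0.66. Ptprj, a phosphatase that acts on PDGFRβ, rose by 0.75 (SE 0.039, limma adjusted p = 2.07e-06) on its brightest probe, while 1 of its other 3 probes gave -0.04, and the mean of its probes, at 0.55, was not called. Cbl (0.23), a ubiquitin ligase for activated receptors, was not called.

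Of the 18 early genes that PDGF induces in fibroblasts, all tested, 8 were called down, against 11.1% called down among all genes, with a median of -0.42. Nr4a1, which encodes the orphan receptor Nur77, had signals of 3.89, 3.79, 3.75 and 3.86 in control and 0.89, 0.31, 0.32 and 0.43 with HX630. It fell by 3.33 (SE 0.129, limma adjusted p = 5.67e-07). Fos, a subunit of AP-1, fell by 2.53 (SE 0.112, limma adjusted p = 9.82e-07), from between -1.13 and -0.90 to between -3.74 and -3.24, and Ier3, an early response gene tied to cell survival, fell by 1.66 (SE 0.0628, limma adjusted p = 5.14e-07). Atf3, Fosl1, Egr2, Fosb and Myc were the other genes called down. Fosl1 was well above background on 4 of 4 control arrays but 1 of 4 HX630 arrays. It entered the test mainly through the control arrays, and its fall rests on HX630 signals mostly below background. Egr1 (0.56), Jun (-0.21), Srf (-0.09) and Ccnd1 (-0.38) were not called.

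Of the 11 transcription factors described at PDGF ligand or receptor promoters, 8 were tested, with a median of -0.03. Of these, 2 were called down, against 11.1% among all genes. Klf4, a zinc finger factor, had signals of 1.74, 1.72, 1.74 and 1.70 in control and 0.54, 0.32, 0.29 and 0.33 with HX630, and fell by 1.35 (SE 0.0573, limma adjusted p = 8.33e-07). Gli1, an effector of Hedgehog signaling, fell by 0.71 (SE 0.125, limma adjusted p = 0.00163), a call lost in 4 settings. Srf, whose product binds the CArG box, was at -0.09, Sp1, whose product binds GC boxes, at 0.02 and Ets1 at -0.33, none of them called. Wt1, Sp3 and Foxc1 were not well above background on any array.

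**Figure D4:**
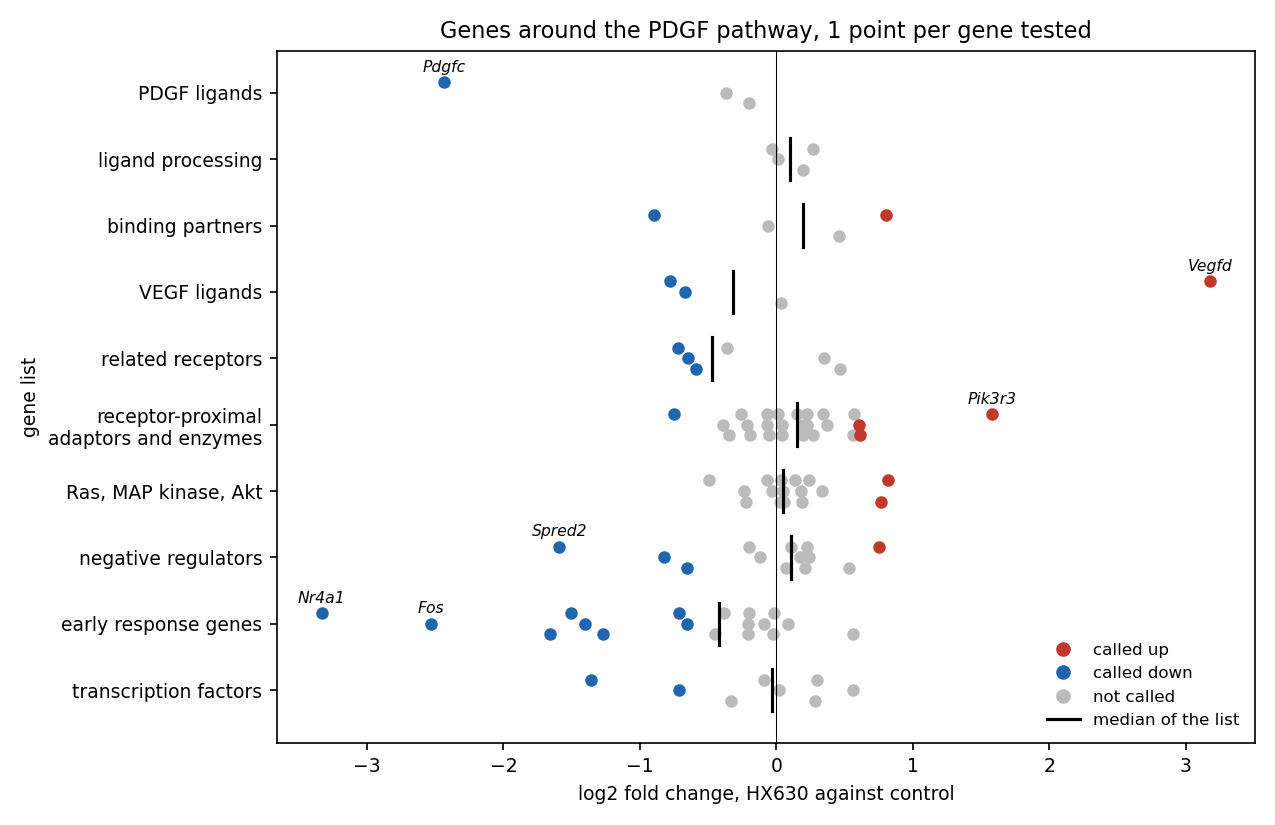
Log2 fold change of HX630 against control (horizontal axis) of each tested gene, 1 point per gene, by gene list (vertical axis), with red and blue for genes called up and down, gray for genes not called and a black line for the median of each list other than the PDGF ligands. Pdgfc stands at -2.43 apart from the other PDGF ligands. The early response genes hold 8 blue points of 18, against 11.1% called down among all genes.

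The genes whose signals followed Pdgfc most closely over the 8 arrays, of 14305 genes well above background on all of them, were Etv5, Gem, Tgfb3, Otop2 and Myom2. Pearson's r was 0.9997 for Etv5, 0.9995 for Gem, 0.9994 for Tgfb3, 0.9993 for Otop2 and 0.9993 for Myom2. Since the 8 arrays form 2 groups, these correlations are set largely by the difference between groups, and they are given as a description. The order of the 8 arrays was the same as for Pdgfc in Etv5, Gem and Otop2 (Spearman's rho of 1). Etv5, a factor of the ETS family, had signals of 2.31, 2.13, 2.08 and 2.22 in control and 0.14, -0.20, -0.28 and -0.19 with HX630. All of these genes fell, by 2.32 for Etv5, 1.99 for Gem, a small GTPase that restrains calcium channels, 1.96 for Tgfb3, a TGF-β ligand, 1.16 for Otop2, a proton channel, and 1.40 for Myom2, a sarcomere protein.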

How the data were processed

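Total RNA of 4 control and 4 HX630 samples was labeled with Cy3 and hybridized to 1-color arrays. The authors deposited, for each array, Feature Extraction 10.7.3.1 output with the processed intensity of every spot, and a table of log2 values, which matched, within 0.01, the processed signals on the log2 scale less each array's 75th percentile. The authors' comparisons were made in GeneSpring with a t-test.

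Here, control spots and outlier spots were left out, spots of a probe were averaged on the log2 scale, and the 75th percentile was subtracted. Probes well above background on at least 4 of 8 arrays (28552) were tested with limma 3.58.1 in R 4.3.3, with Benjamini-Hochberg adjustment. A gene stands for its brightest tested probe. Probes were named by accession through a RefSeq table (GRCm38.p6), which matched 26055 probes (66.1%) and served for names only, since the array's design uses another build. Single values were also tested with an exact permutation test. Tested on simulated data, the code recovered 74% of 200 probes of 28552 changed by 1 on the log2 scale in HX630 against control. In the data 5312 probes were called, which makes the adjustment less strict, so the 74% does not give the sensitivity of the reported calls.

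The genes named were all 6 members, up to 3 called genes with the largest change in each list, and the 5 most correlated with a called member. Of these genes, 1 is not reported here. A few other list members are named as examples, chosen after their values were seen. The members and lists were chosen with earlier results of these data known. The alternatives were other scalings, the deposited log2 table, background corrections, filters on dim probes, tests, variance models, probe averages, a block for the replicate number, and omission of each array in turn. The number of arrays limits the precision.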

Additional observations from a re-analysis of the deposited data

Results flagged for a closer look

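Of 52 groups of 4 arrays, 5 had 1 array that stood apart from the other 3 by Dixon's criterion. Chance flags about 1 in 20 groups, or 2.6 of 52. For Pdgfb, control replicate 1 had a gap of 0.87 of the range of its group (-3.55 against a mean of -3.83 in the others), and the log2 fold change was -0.30 without it. The other flags were Vegfd in HX630 replicate 1 (0.939), Lrp1 in control replicate 2 (0.929), Spred2 in HX630 replicate 1 (0.855) and Klf4 in HX630 replicate 1 (0.835). Without the array concerned, the log2 fold changes were 3.20 as fitted for Vegfd, -0.88 for Lrp1, -1.66 for Spred2 and -1.41 for Klf4.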

How the results depend on the processing

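The Pdgfc call kept its direction and its side of the threshold in all 23 settings (p from 3.63e-08 to 5.01e-05, from limma or the methods' t-test, adjusted in all but the unadjusted t-test). Pdgfa turned to 0.0050 with spike-in scaling. The difference between the changes of Pdgfa and Pdgfb turned to -0.039 with normexp at an offset of 50 and quantile normalization. Pdgfb was not called in any setting (-0.46 to -0.14, adjusted p from 0.00474 to 0.224). With no filter on dim probes, 2 members were called, the second being Pdgfrb, on signals not well above background. Over all probes, 2133 were called up and 3179 down, or 40.2% up. With spike-in scaling this was 4020 up and 2001 down (66.8% up), and with the median of each array 2830 up and 2655 down (51.6% up). Quantile normalization alone gave 2712 up and 2730 down (49.8% up). With normexp at an offset of 50 and quantile normalization it was 1534 up and 1640 down (48.3% up). With normexp at an offset of 16 and the 75th percentile it was 1355 up and 2903 down (31.8% up). Leaving out each array in turn gave 1944 to 2568 probes up, 2878 to 3364 down, and log2 fold changes of -2.53 to -2.37 for Pdgfc, -0.46 to -0.25 for Pdgfb and -0.23 to -0.17 for Pdgfa. Sos1 was reversed, at -0.24, with normexp at an offset of 16. For the 21 other named genes, 436 of 480 values kept direction and side of the threshold, 43 were past it no longer and 1 was reversed. The causes were not tested.

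The labels number the replicates 1 to 4 in both groups, but deviations from the group means correlated at 0.52, -0.012, 0.24 and 0.38 for same-numbered samples. Because 1 of these was near 0 and no source ties the numbers to a shared batch, the numbers were not taken as pairs, although 5 of 8 samples correlated best with their own number, a hint of pairing from the data. With the replicate block, 2213 probes were called up and 3342 down, and Pdgfc was at -2.43 (limma adjusted p = 5.01e-05), Pdgfb at -0.37 (0.0134) and Pdgfa at -0.20 (0.0147). No member's call changed under the replicate block. Signals near background limit what can be said of Pdgfd, Pdgfra and Pdgfrb, and 4 arrays per group allow no exact p below 0.0286.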
